A study of Mus musculus with 16 samples.

Results

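The tight junction and desmosome genes were followed in 8 mouse embryonic stem cell (ESC) lines, each measured 12 days after withdrawal of leukaemia inhibitory factor (LIF), the cytokine that holds mouse ESCs in self-renewal, and with LIF present. The members were all genes named Cldn, Dsc, Dsg, Pkp or Tjp with a number (Dsg with or without a letter), plus Ocln, F11r, Epcam, Dsp and Jup, among genes with a probe set of a single symbol. These were 43 of 30102 genes: 23 claudins, 9 desmosomal cadherins, 6 desmosome plaque genes, 2 tight junction scaffolds, and Ocln, F11r and Epcam. Each had 1 probe set. All lines were male and of strain 129SV, and each gave 1 array per condition, 16 in all, on Affymetrix arrays read from total RNA of the whole culture. Except for EBRTcH3, whose label names no deletion, every line was an Mbd3 knockout carrying a construct. In 3 lines the construct left no coiled coil of the MBD3 protein: the empty vector, MBD3a with the coiled coil deleted (coiled-coil-deleted), and MBD3a with both the methyl-CpG binding domain (MBD) and the coiled coil deleted (doubly deleted). These are called lacking lines. The other 5 are called retaining lines: the isoforms MBD3a, MBD3b and MBD3c, MBD3a with the MBD deleted (MBD-deleted), and EBRTcH3. No label says that MBD3b and MBD3c hold the coiled coil; they are classed so from general knowledge of the isoforms, and every class comparison below rests on this. The labels name no second culture of a line and give neither the number of clones nor the promoter that drives the constructs, so each line counts as 1 replicate, and a p-value here measures spread from line to line, part of which may be technical. The study's title asks what the coiled coil of MBD3 does for the capacity of ESCs to commit to lineages.

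Tight junctions seal the space between neighbouring epithelial cells. Claudins form their strands and set which ions pass, occludin (Ocln) and the adhesion molecule F11r (JAM-A) sit in the same membrane, and the scaffold proteins Tjp1 (ZO-1) and Tjp3 (ZO-3) tie them to actin. Desmosomes anchor cells to each other against force: the cadherins of the Dsc and Dsg families meet between cells, plakoglobin (Jup) and the plakophilins (Pkp1 to Pkp4) bind their tails, and desmoplakin (Dsp) links the plaque to keratin filaments. Undifferentiated mouse ESCs grow as compact colonies held together mainly by E-cadherin, and junction genes are among those that change as cells form the first epithelia of the embryo. MBD3 is a subunit of NuRD, a complex that deacetylates histones and remodels nucleosomes.

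Values are log2 signals after robust multi-array averaging (RMA), so a difference of 1 is a doubling of signal, and the log2 signals of different genes, measured by different probes, were not compared as transcript amounts. A gene passed in a comparison when its adjusted p (limma, Benjamini-Hochberg over all 22872 genes tested) was under 0.05; "rose", "fell", "higher" and "lower" are used as calls in this sense. Mbd3 itself read 7.45 without LIF and 7.00 with LIF in the empty vector line, below every other array, which lay between 8.45 and 9.59. All 10 markers of the ESC list were measured above the filter, and the pluripotency factor Pou5f1 lay between 11.93 and 12.56 on all arrays. The numbers that open the sample titles fall in 2 runs. The first, 1 to 10, holds 4 retaining lines and the empty vector; the second, 15 to 20, holds the MBD-deleted line and the other 2 lacking lines. No label says what a run stands for. Since the RNA came from whole cultures, fewer cells that express a gene and less of its RNA per cell cannot be told apart.

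Promoters of 27 of the 43 members are in the RefSeq table of assembly GRCm38.p6, each as the 250 bases before and 50 after a transcription start. The 6 shown are those of genes on which the results turn. They were searched on both strands for the E-box CACCTG, which repressors of epithelial genes such as Zeb1 and Snai1 bind, and the letters of each match are in capitals (CAGGTG is the same motif on the other strand). They lie at chr13:38151044-38151343 (Dsp, plus strand), chr17:23679115-23679414 (Cldn6, plus), chr11:69965171-69965470 (Cldn7, plus), chr5:134985964-134986263 (Cldn3, plus), chr13:100552449-100552748 (Ocln, minus) and chr16:26371790-26372089 (Cldn1, minus). Cldn7 and Ocln have a second start in the table, and Cldn1 is shown because it has no match.
Dsp: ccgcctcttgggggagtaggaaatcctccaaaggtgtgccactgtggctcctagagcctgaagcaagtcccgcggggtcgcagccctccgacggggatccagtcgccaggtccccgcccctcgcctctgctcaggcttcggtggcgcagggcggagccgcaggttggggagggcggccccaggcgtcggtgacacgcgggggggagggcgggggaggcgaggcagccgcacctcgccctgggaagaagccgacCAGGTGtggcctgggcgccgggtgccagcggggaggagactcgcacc
Cldn6: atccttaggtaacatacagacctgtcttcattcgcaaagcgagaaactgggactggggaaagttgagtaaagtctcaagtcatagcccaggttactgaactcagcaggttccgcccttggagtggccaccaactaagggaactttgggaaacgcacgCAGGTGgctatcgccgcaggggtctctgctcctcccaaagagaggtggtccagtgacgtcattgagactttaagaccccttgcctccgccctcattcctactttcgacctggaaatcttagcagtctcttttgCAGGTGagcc
Cldn7: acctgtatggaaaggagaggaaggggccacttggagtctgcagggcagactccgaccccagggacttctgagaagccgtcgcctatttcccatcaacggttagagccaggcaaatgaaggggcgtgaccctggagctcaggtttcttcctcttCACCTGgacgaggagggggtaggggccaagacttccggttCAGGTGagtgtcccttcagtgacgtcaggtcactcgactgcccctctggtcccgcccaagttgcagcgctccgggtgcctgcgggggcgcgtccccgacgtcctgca
Cldn3: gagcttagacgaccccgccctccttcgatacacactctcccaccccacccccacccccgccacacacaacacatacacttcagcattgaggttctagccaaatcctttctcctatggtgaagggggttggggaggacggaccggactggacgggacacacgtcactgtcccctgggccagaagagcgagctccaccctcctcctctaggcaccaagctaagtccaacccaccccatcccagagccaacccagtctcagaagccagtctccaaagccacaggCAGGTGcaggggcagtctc
Ocln: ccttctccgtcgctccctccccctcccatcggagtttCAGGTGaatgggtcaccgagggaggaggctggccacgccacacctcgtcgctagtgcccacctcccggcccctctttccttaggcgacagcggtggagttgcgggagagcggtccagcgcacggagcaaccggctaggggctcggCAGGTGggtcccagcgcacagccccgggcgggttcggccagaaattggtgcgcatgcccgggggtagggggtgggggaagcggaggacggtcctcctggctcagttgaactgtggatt
Cldn1: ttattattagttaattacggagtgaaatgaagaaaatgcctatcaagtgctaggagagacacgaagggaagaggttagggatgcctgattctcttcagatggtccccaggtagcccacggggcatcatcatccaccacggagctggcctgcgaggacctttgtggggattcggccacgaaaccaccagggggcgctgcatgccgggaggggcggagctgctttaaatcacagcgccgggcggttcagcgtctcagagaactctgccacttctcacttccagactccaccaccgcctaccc
Counting the start as 1 and the base before it as -1, the match begins at position 4 in Dsp and at 32 in Cldn3. Cldn6 has a match at -93 and another at 41, Cldn7 at -97 and -57, and Ocln at -213 and -68. The promoters differ in base composition, with 73.0% G or C and 27 CpG in Dsp, against 52.3% and 10 CpG in Cldn6.

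Of the 43 members, 34 had signal above the filter (on 3 or more arrays, over the 40th percentile of that array) and were tested. The 9 below it were Cldn13 and Cldn18 among the claudins, and Dsc1, Dsc3, Dsg1a, Dsg1b, Dsg1c, Dsg3 and Dsg4, which is every desmosomal cadherin but Dsc2 and Dsg2. Their log2 signals lay between 2.88 and 4.35 on all arrays. Dsc1, Dsc3, Dsg1 and Dsg3 are the cadherins of stratified epithelia such as skin, and Dsc2 and Dsg2 are those of simple epithelia. The 5 members with the highest mean signal were Jup (10.68), Tjp1 (10.40), Epcam (9.89), Cldn4 (9.56) and Pkp4 (9.48), read with the limit on comparing probe sets given above.

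In the 5 retaining lines, 17 of the 34 tested members rose after LIF withdrawal and 0 fell, where 21.3% of all tested genes rose and 14.5% fell. At an unadjusted p under 0.05 in limma, 17 members were higher and 1, Cldn14, was lower. The median log2 change was 0.24 over the tested members and 0.04 over all tested genes. With arrays quantile normalized again these medians were 0.13 and -0.037, and with arrays centred on their median 0.14 and -0.064. The desmosome genes Dsp and Dsc2 led with about 8-fold changes, followed by the claudins Cldn6, Cldn7 and Cldn3, Pkp2 and Ocln, each up by 1 or more on the log2 scale. These 7 members are 20.6% of the 34, and 3.8% of all tested genes rose as far. By family, 8 of 21 claudins rose, 4 of 6 plaque genes, 1 of 2 desmosomal cadherins, 1 of 2 scaffolds, and all of Ocln, F11r and Epcam. Under the same scalings the count of rises was 14 (quantile) or 13 (centred), where 18.0% and 16.2% of all genes rose. Cldn14 fell under both, and with centring Cldn20 also.

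**Figure D1:**
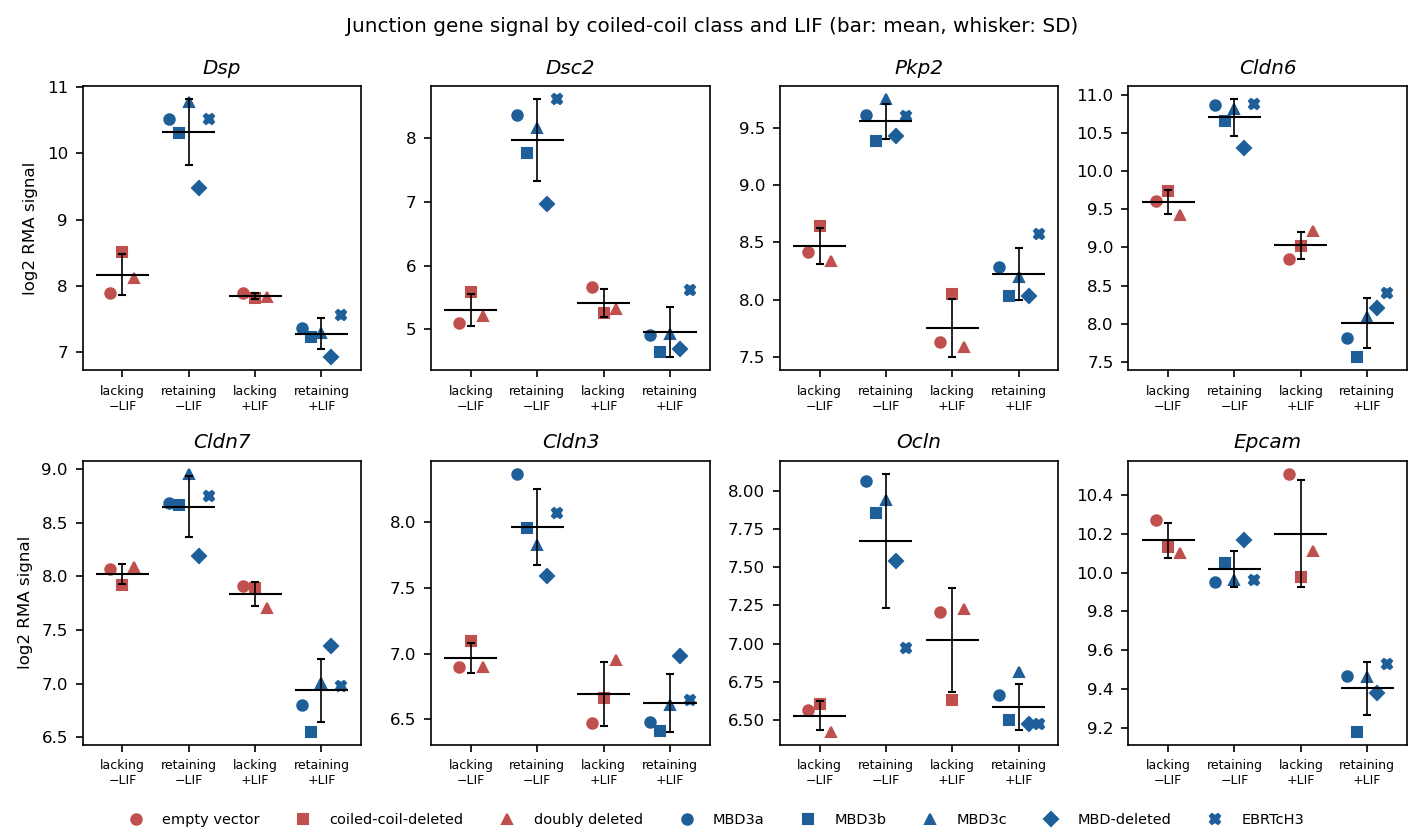
Log2 RMA signal (y axis) of 8 junction genes on each array, in lines lacking (red) and retaining (blue) the coiled coil of MBD3, without (−) and with (+) LIF; bars are group means and whiskers SD over 3 or 5 lines. For Dsp, Dsc2, Cldn6 and Pkp2 every retaining line without LIF lies above all other arrays, while Epcam is lowest in the retaining lines with LIF.

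Desmoplakin (Dsp) read 10.52, 10.31, 10.77, 9.48 and 10.52 without LIF in the MBD3a, MBD3b, MBD3c, MBD-deleted and EBRTcH3 lines, against 7.37, 7.23, 7.30, 6.93 and 7.57 in the same lines with LIF. The groups were far apart, with the lowest array without LIF well above the highest with it. The change was 3.04 ± 0.13 (log2 ± SE, 8.22-fold, adjusted p = 6.46e-08). Desmocollin 2 (Dsc2), a desmosomal cadherin, read 8.36, 7.77, 8.16, 6.96 and 8.62 without LIF, against 4.91, 4.64, 4.92, 4.68 and 5.62 with LIF, in the same order of lines. Again the groups did not overlap, and EBRTcH3 was the highest line in both. The change was 3.02 ± 0.16 (8.11-fold, adjusted p = 2.68e-07). Its partner desmoglein 2 (Dsg2) did not pass: it read 9.60, 9.32, 9.61, 9.26 and 9.73 without LIF, against 9.83, 9.42, 9.27, 8.71 and 9.70 with LIF. These ranges overlapped, and the difference was 0.12 with a 95% confidence interval of -0.14 to 0.38.

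Plakophilin 2 (Pkp2), which binds desmoplakin and plakoglobin in the plaque of simple epithelia and heart, read 9.61, 9.38, 9.75, 9.43 and 9.60 without LIF, against 8.29, 8.03, 8.20, 8.03 and 8.57 with LIF. No line crossed between the groups, and the 5 responses were close to each other, from 1.03 to 1.55. The change was 1.33 ± 0.09 (2.51-fold, adjusted p = 9.4e-07). Plakoglobin (Jup), the member with the highest mean signal, read 11.12, 10.92, 11, 10.84 and 11 without LIF, against 10.42, 10.31, 10.33, 10.23 and 10.64 with LIF. The groups were apart, by a smaller step, and Jup rose by 0.59 ± 0.08 (adjusted p = 0.000184). Plakophilin 3 (Pkp3) rose by 0.35 ± 0.12 (adjusted p = 0.0455). That call was lost or turned under 11 of 19 alternatives, which include leaving out EBRTcH3, MBD3a, MBD3b, MBD3c, the empty vector or the coiled-coil-deleted line, and both other scalings. The change of Pkp1 was not past the test, nor was that of Pkp4, which is also found at adherens junctions.

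Among the claudins Cldn6, typical of embryonic epithelia, read 10.87, 10.66, 10.82, 10.30 and 10.88 without LIF, against 7.81, 7.56, 8.08, 8.20 and 8.40 with LIF, in the order MBD3a, MBD3b, MBD3c, MBD-deleted and EBRTcH3. All arrays without LIF were above all arrays with it, and the change was 2.70 ± 0.14 (6.48-fold, adjusted p = 2.5e-07). Cldn7, a claudin that binds Epcam, read 8.69, 8.67, 8.96, 8.19 and 8.75 without LIF, against 6.80, 6.55, 7.01, 7.35 and 6.98 with LIF. Here the MBD-deleted line was lowest without LIF and highest with it. Cldn7 rose by 1.71 ± 0.15 (3.28-fold, adjusted p = 1.03e-05). Cldn3, a barrier-forming claudin, read 8.37, 7.96, 7.83, 7.59 and 8.07 without LIF, against 6.48, 6.41, 6.61, 6.98 and 6.65 with LIF, and the MBD-deleted line was again nearest to the other group on both sides. The change was 1.34 ± 0.15 (2.53-fold, adjusted p = 5.59e-05).

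Cldn1, the claudin of the skin barrier, had low signal: 5.45, 5.58, 5.71, 5.20 and 5.36 without LIF, against 4.66, 4.65, 4.69, 4.76 and 4.63 with LIF. The groups did not overlap, and it rose by 0.78 ± 0.10 (adjusted p = 0.000142). Cldn4, by contrast, had high signal with overlapping groups: 10.25, 9.82, 9.99, 9.75 and 9.87 without LIF, against 9.10, 8.94, 9.30, 10.05 and 9.40 with LIF. The MBD-deleted line was the exception, with the lowest value without LIF and the highest with it. The mean change of Cldn4 was 0.58 ± 0.17 (adjusted p = 0.0215), and the call was lost without MBD3a, without MBD3b or without MBD3c. Cldn9 rose by 0.55 ± 0.11. Cldn23 and Cldn22 rose by 0.33 ± 0.11 and 0.26 ± 0.07, and both calls were lost under either other scaling of the arrays and without MBD3a. That of Cldn23 was also lost without EBRTcH3, without MBD3b and without MBD3c. The remaining 13 tested claudins did not pass, with estimates from -0.17 (Cldn14) to 0.21 (Cldn5).

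Occludin (Ocln) read 8.07, 7.86, 7.94, 7.54 and 6.97 without LIF, against 6.66, 6.50, 6.81, 6.47 and 6.47 with LIF. EBRTcH3 was the lowest line without LIF, and still above all lines with LIF. Ocln rose by 1.09 ± 0.14 (2.13-fold, adjusted p = 0.000128). F11r read 9.64, 9.36, 9.52, 9.05 and 9.70 without LIF, against 8.66, 8.53, 8.48, 8.91 and 9.02 with LIF. The groups were separate by a narrow margin, set by the MBD-deleted line without LIF and EBRTcH3 with LIF. The change was 0.73 ± 0.13 (adjusted p = 0.000864).

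Epcam, an adhesion glycoprotein of ESCs and epithelia that stabilises claudins, read 9.95, 10.05, 9.96, 10.17 and 9.96 without LIF, against 9.47, 9.18, 9.46, 9.38 and 9.53 with LIF. These did not overlap, and the lines without LIF were within a narrow range. Epcam rose by 0.61 ± 0.09 (adjusted p = 0.000372). Tjp1 read 10.60, 10.55, 10.75, 10.48 and 10.75 without LIF, against 10.40, 10.35, 10.29, 9.82 and 10.37 with LIF. The ranges were apart, with MBD-deleted lowest in each condition. Its change was 0.38 ± 0.11 (adjusted p = 0.0202), and the call was lost without EBRTcH3, without MBD3c, without MBD-deleted, and with arrays centred on their median. Tjp3 was not past the test, at 0.17 ± 0.10.

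Some members are neighbours on a chromosome, with no protein-coding gene between them, and 5 pairs of tested claudins are. On chromosome 17 Cldn6 rose by 2.70 ± 0.14, against 0.55 ± 0.11 for Cldn9. On chromosome 5 Cldn3 rose by 1.34 ± 0.15, against 0.58 ± 0.17 for Cldn4. On chromosome 16 Cldn1 rose by 0.78 ± 0.10, and Cldn16 next to it did not pass, at 0.02 ± 0.11. The responses of the other pairs were close in size: 0.17 ± 0.08 for Cldn17 and -0.08 ± 0.14 for Cldn8 on chromosome 16, neither past the test, and 0.10 ± 0.08 for Cldn24, not past the test, beside the rise of 0.26 ± 0.07 for Cldn22 on chromosome 8. The desmosomal cadherins lie in a row on chromosome 18 that runs, in this order, from Dsc3 through Dsc2 and Dsc1 to the Dsg genes and ends at Dsg2. Of that row Dsc2 and Dsg2 alone were tested, and Dsc2 passed. The differences between neighbours were not tested.

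The MBD-deleted line had the lowest signal of the 5 retaining lines without LIF in 13 of the 17 members that rose (76.5%). The exceptions were Cldn9, Epcam, Ocln and Pkp2. Over all 4870 genes that rose in these lines it was lowest in 40.6%. It had the smallest response in 10 of the 17 members (58.8%), against 42.5% of all genes that rose. Without LIF, MBD-deleted minus MBD3a was -1.40 for Dsc2, -1.04 for Dsp and -0.78 for Cldn3 on the log2 scale. With LIF, Cldn4 read 10.05 in the MBD-deleted line and 9.10 in the MBD3a line, a difference of 0.95. Each of these sets 1 array against 1 array and has no test, and the MBD-deleted line is also the sole retaining line of the second run of titles, so line and run cannot be told apart.

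In the 3 lacking lines, 1 of the 34 tested members rose after LIF withdrawal, Pkp2, and 0 fell, where 1.71% of all tested genes rose and 1.22% fell. At an unadjusted p under 0.05 in limma, 3 members were higher and 3 lower. The median change was 0.02 over the members and 0.00 over all genes. Pkp2 read 8.42, 8.64 and 8.34 without LIF in the empty vector, coiled-coil-deleted and doubly deleted lines, against 7.63, 8.05 and 7.59 with LIF. The groups did not overlap, and the change was 0.71 ± 0.11 (1.64-fold, adjusted p = 0.00854). Without the empty vector the Pkp2 call was lost and no member passed.

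Dsp read 7.89, 8.51 and 8.12 without LIF in these lines, against 7.90, 7.82 and 7.83 with LIF. The empty vector line was level between conditions and the coiled-coil-deleted line was the one with the largest difference. The estimate was 0.32 (95% confidence interval -0.05 to 0.69). Dsc2 read 5.10, 5.58 and 5.21 without LIF, against 5.66, 5.25 and 5.32 with LIF, so the ranges overlapped and the lines went both ways. Cldn6 was higher without LIF in all 3 lines, with 9.61, 9.74 and 9.43, against 8.85, 9.02 and 9.21 with LIF. Its estimate of 0.57 ± 0.18 had an adjusted p of 0.149 and did not pass. Occludin ran the other way, with 6.56, 6.60 and 6.42 without LIF, against 7.21, 6.63 and 7.23 with LIF. That estimate, -0.50 ± 0.18, did not pass either (adjusted p = 0.206).

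**Figure D2:**
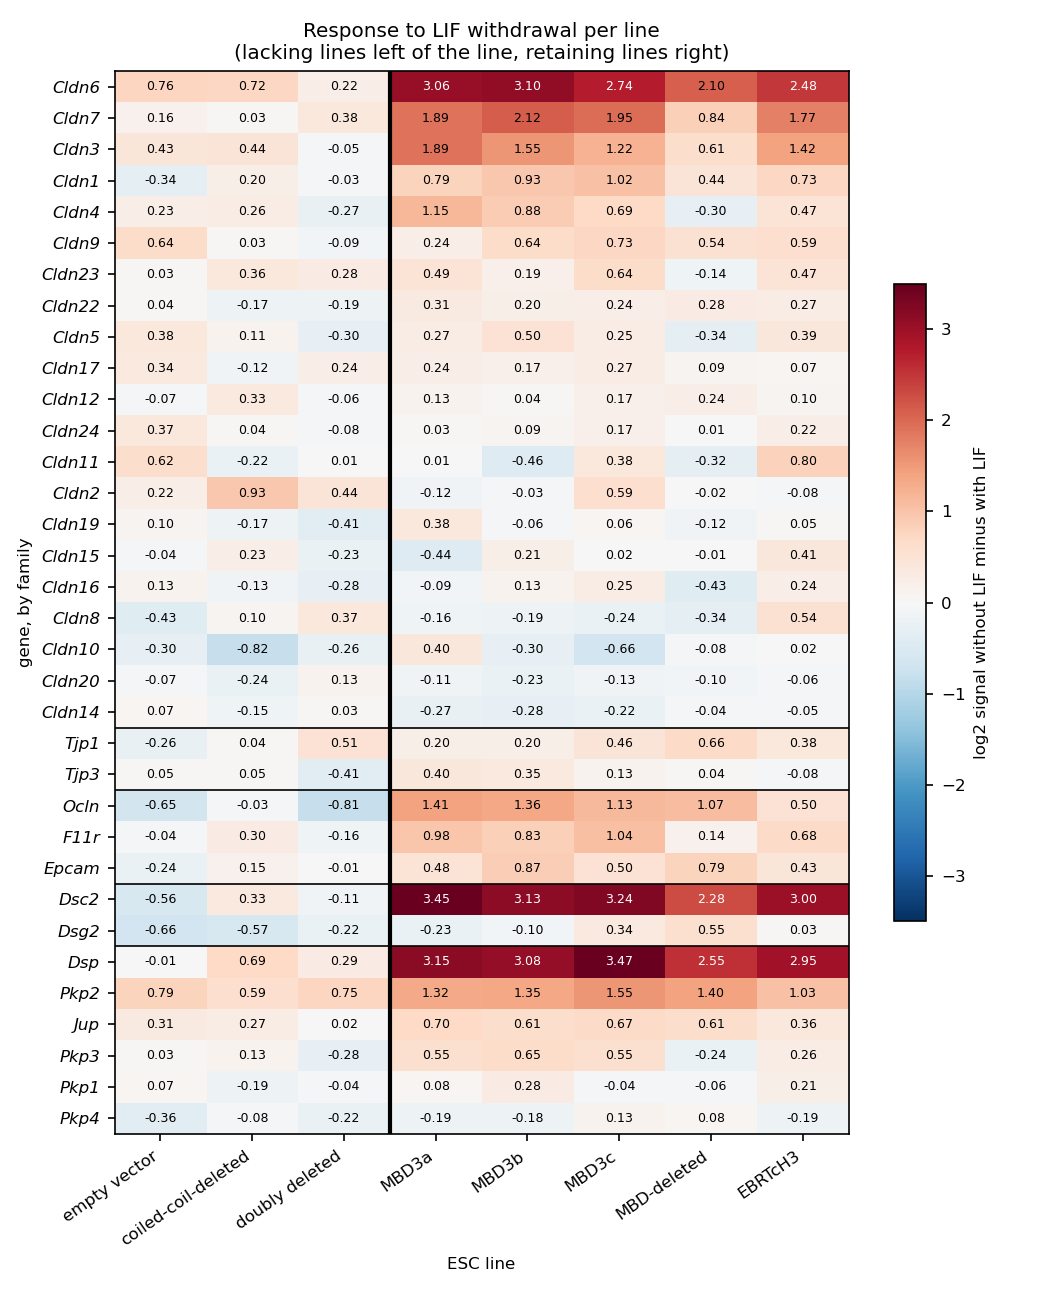
Response to LIF withdrawal (log2 signal without LIF minus with LIF, colour and number) of the 34 tested members in each line, grouped by family; the 3 lacking lines are left of the thick line and the 5 retaining lines right. Cldn6, Dsc2 and Dsp are at 2.10 or more in every retaining line and at 0.76 or less in every lacking line.

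The difference between the classes of line was tested directly, as the response in lacking lines minus that in retaining lines. Of the 34 members 10 were lower and 0 higher in this sense, where 7.9% of all tested genes were lower and 4.17% higher. At an unadjusted p under 0.05 in limma, 13 members were lower and 1 higher. The median difference was -0.31 over the members and -0.05 over all genes. The largest was that of Dsc2, -3.13 ± 0.26 (adjusted p = 9.62e-05), whose responses were -0.56, 0.33 and -0.11 in the lacking lines and 3.45, 3.13, 3.24, 2.28 and 3.00 in the retaining lines. The next was Dsp, -2.72 ± 0.21 (adjusted p = 7.04e-05), with responses of -0.01, 0.69 and 0.29 in the lacking lines, against 2.55 to 3.47 in the retaining lines. For neither gene did any lacking line come near a retaining line.

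Of the claudins, 4 had a smaller response in the lacking lines: Cldn6 by -2.13 ± 0.23, Cldn7 by -1.52 ± 0.25, Cldn3 by -1.06 ± 0.25 and Cldn1 by -0.84 ± 0.17. The Cldn3 call (adjusted p = 0.0191) was lost with the title run as a covariate, within each run, without the coiled-coil-deleted line and without the doubly deleted line. The difference for Ocln was -1.59 ± 0.23 (adjusted p = 0.00161): its estimates lay below 0 in the lacking lines and above 0 in the retaining lines. Epcam (-0.65 ± 0.15, adjusted p = 0.0186) and Pkp2 (-0.62 ± 0.14, adjusted p = 0.0155) differed less. The Epcam call was lost with arrays centred on their median, within each title run, without the empty vector and without the doubly deleted line. The Pkp2 call was lost within each title run, without the coiled-coil-deleted and without the doubly deleted line. F11r was at the threshold (-0.70 ± 0.20, adjusted p = 0.0484) and was lost under 13 of 19 alternatives, among them the title run as a covariate and leaving out any 1 line other than MBD-deleted. Members that rose in the retaining lines without a difference past the test were Jup, Tjp1, Pkp3, Cldn4, Cldn9, Cldn22 and Cldn23.

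**Figure D3:**
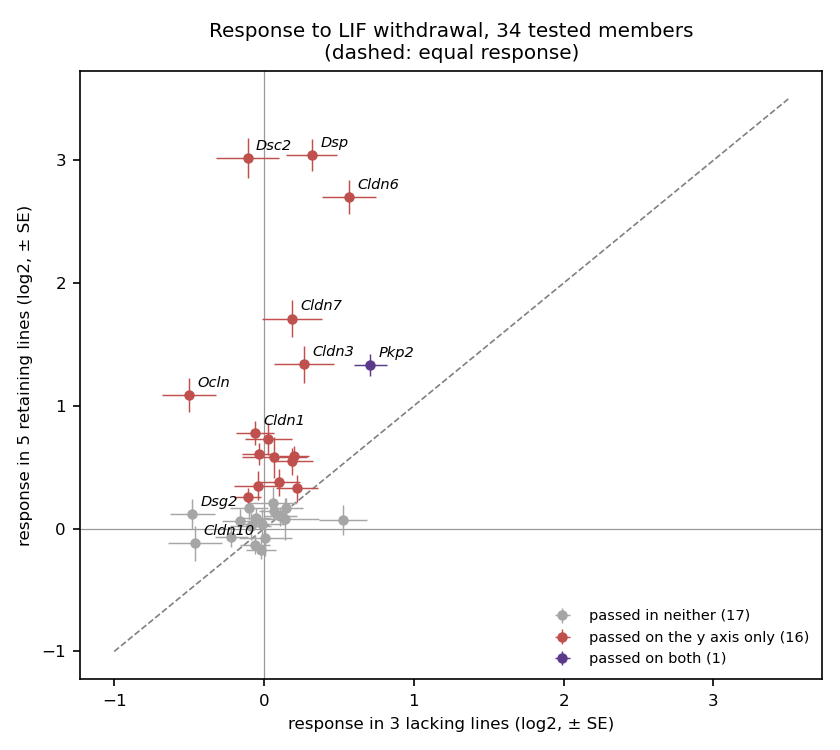
Fitted response to LIF withdrawal (log2 ± SE) of the 34 tested members in the 3 lacking lines (x axis) and the 5 retaining lines (y axis); colours give the calls of each comparison and the dashed line equal response. Pkp2 is the sole member that passed in both, and Dsc2, Dsp, Cldn6, Cldn7, Cldn3 and Ocln lie far above the dashed line.

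With LIF, before any withdrawal, 4 of the 34 members were higher and 2 lower in the lacking lines than in the retaining lines, where 10.6% of all tested genes were higher and 9.0% lower. The shares of the members, 11.8% and 5.88%, were thus near those of all tested genes. At an unadjusted p under 0.05 in limma, 11 members were higher and 2 lower. The median difference was 0.16 over the members and 0.05 over all genes. These arrays with LIF also enter the responses above, so the comparisons share samples. Cldn6 read 8.85, 9.02 and 9.21 in the lacking lines, against 7.81, 7.56, 8.08, 8.20 and 8.40 in the retaining lines. Cldn7 read 7.91, 7.89 and 7.71 in the lacking lines, against 6.80, 6.55, 7.01, 7.35 and 6.98 in the retaining lines. Both were without overlap, at 1.02 ± 0.17 for Cldn6 (2.02-fold, adjusted p = 0.000423) and 0.90 ± 0.16 for Cldn7 (1.86-fold, adjusted p = 0.000813). Epcam read 10.51, 9.98 and 10.11 in the lacking lines, against 9.47, 9.18, 9.46, 9.38 and 9.53 in the retaining lines. It was thus higher in each lacking line than in any retaining line (0.80 ± 0.11, adjusted p = 9.57e-05). Tjp3 read 7.82, 7.73 and 8.26 in the lacking lines, against 7.29, 7.19, 7.30, 7.56 and 7.54 in the retaining lines. The difference was 0.56 ± 0.12 (adjusted p = 0.00274), and this call was lost within each title run.

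The members lower in the lacking lines with LIF were Pkp2 (-0.47 ± 0.14) and Cldn12 (-0.35 ± 0.09), a claudin with signal in all lines. The Pkp2 call was lost under 9 of 20 alternatives, among them leaving out EBRTcH3, MBD3a, the empty vector or the doubly deleted line. That of Cldn12 was lost without the coiled-coil-deleted line, within each title run and with each condition fitted alone. Dsp was higher by 0.57 ± 0.22 without passing (adjusted p = 0.0803, 95% confidence interval 0.11 to 1.03).

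Without LIF, 9 of the 34 members were lower and 1 higher in the lacking lines, where 11.5% of all tested genes were lower and 7.38% higher. The median difference was -0.21 over the members and 0.01 over all genes. Dsc2 read 5.10, 5.58 and 5.21 in the lacking lines, against 8.36, 7.77, 8.16, 6.96 and 8.62 in the retaining lines, a difference of -2.68 ± 0.29 (6.40-fold lower, adjusted p = 4.96e-06). Dsp followed at -2.15 ± 0.22 (4.43-fold lower, adjusted p = 3e-06). The highest lacking line lay below the lowest retaining line for both. The others lower in the lacking lines were Ocln (-1.15 ± 0.20), Cldn6 (-1.11 ± 0.17), Pkp2 (-1.09 ± 0.14), Cldn3 (-1.0 ± 0.16), Cldn7 (-0.63 ± 0.16), Cldn1 (-0.56 ± 0.11) and Cldn12 (-0.42 ± 0.09). Cldn6 and Cldn7 thus changed sides: both were higher in lacking lines with LIF and lower in them without LIF. The Cldn7 call without LIF was lost without the coiled-coil-deleted line, and the Ocln call within each title run. Within the second run, where MBD-deleted is the sole retaining line, the Cldn7 difference was -0.18 without LIF and 0.45 with LIF. Cldn2, which forms cation pores, was the member higher in the lacking lines, at low signal: 4.34, 4.93 and 4.61, against 4.07, 3.96, 4.55, 3.99 and 3.91 in the retaining lines. MBD3c lay within the range of the lacking lines. Cldn2 was above the filter, which lay between 4.24 and 4.38 on the arrays, on those 3 lacking arrays and on MBD3c without LIF alone, so it entered the test mainly through the group where it is high, and its call (0.53 ± 0.14, adjusted p = 0.0115) is given as a description. That call was also lost within each title run and without the coiled-coil-deleted line. Leaving Cldn2 out, 9 of 33 members were lower. Tjp3 did not pass here (0.29 ± 0.12, adjusted p = 0.104), but was higher in the lacking lines under both other scalings of the arrays. With arrays centred on their median Cldn9 was also lower.

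**Figure D4:**
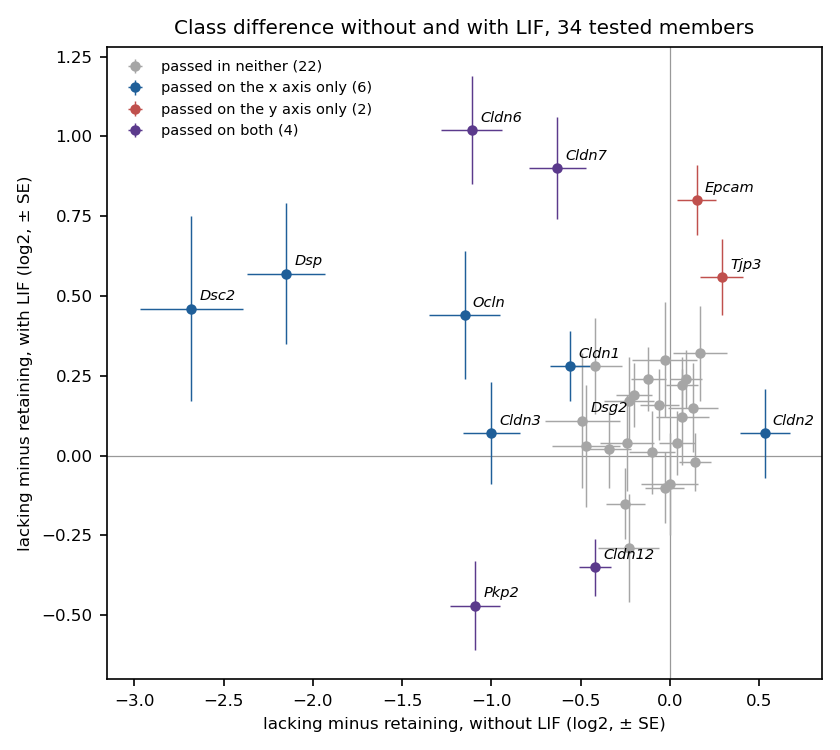
Lacking minus retaining lines (log2 ± SE) for the 34 tested members, without LIF (x axis) and with LIF (y axis); colours give the calls of each comparison. Cldn6 and Cldn7 lie in the upper left, higher in lacking lines with LIF and lower without, and Pkp2 and Cldn12 are lower in both.

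Within the 2 runs of titles the leading members kept their direction. In each run 1 class is a single line, so the spread comes from the lines of the other class, the single line is assumed to vary like them, and the values below are a description of direction and size. The response of the retaining lines was 3.16 for Dsp, 3.21 for Dsc2 and 2.85 for Cldn6 in the first run (4 lines). It was 2.55, 2.28 and 2.10 in the second run, with MBD-deleted alone. In the first run, with the empty vector against 4 retaining lines, the response difference was -3.77 for Dsc2, -3.17 for Dsp, -2.08 for Cldn6 and -1.77 for Cldn7. In the second run, with 2 lacking lines against the MBD-deleted line, it was -2.17 for Dsc2, -2.06 for Dsp, -1.63 for Cldn6 and -0.64 for Cldn7. Without LIF, lacking minus retaining was -3.13 for Dsc2 and -2.64 for Dsp in the first run, and -1.56 and -1.17 in the second. With LIF it was 0.89 for Cldn6, 1.07 for Cldn7 and 1.10 for Epcam in the first run, and 0.92, 0.45 and 0.67 in the second.

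Taken over all 8 lines, 12 of the 34 members rose after LIF withdrawal and 0 fell, where 15.1% of all tested genes rose and 9.89% fell. At an unadjusted p under 0.05 in limma, 15 were higher and 0 lower. The 12 were Dsp, Dsc2, Cldn6, Cldn7, Pkp2, Cldn3, Cldn1, F11r, Jup, Cldn9, Epcam and Cldn23. Leaving out EBRTcH3, MBD3a, MBD3b or MBD3c, 1 at a time, brought the count to 7. Since both classes of line enter this mean, the standard errors were larger where the classes differed: Dsc2 changed by 1.84 ± 0.48 and Dsp by 2.02 ± 0.41.

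The other genes of the junctions were taken from lists by function. In the retaining lines after LIF withdrawal, 14 of 24 other tight junction genes rose and 4 fell. Over all tested genes 21.3% rose and 14.5% fell in these lines. Cingulin (Cgn), a linker of tight junctions to actin and myosin, rose by 1.52 ± 0.08, Marveld2 (tricellulin), which seals the corners between cells, by 1.42 ± 0.10, while Jam2 fell by 1.77 on the log2 scale and Ildr1 by 1.29. Of 14 adherens junction genes 9 rose and 1 fell: N-cadherin (Cdh2) rose by 1.41 ± 0.15, vinculin (Vcl) by 1.11 ± 0.12, P-cadherin (Cdh3) by 0.88 ± 0.11 and E-cadherin (Cdh1) by 0.79 ± 0.07. Of 10 gap junction genes, the connexins, 0 rose and 2 fell, Gjb2 (-0.69 ± 0.12) and Gjc1 (-0.36 ± 0.11). The falls are 20.0% of that list, near the 14.5% of all tested genes that fell. At an unadjusted p under 0.05 in limma 1 was higher and 2 lower. Of 11 keratins and other desmosome-linked genes 8 rose and 0 fell, with 9 higher and 0 lower at an unadjusted p under 0.05 in limma. The filament partners of desmoplakin led: Krt18 rose by 4.76 ± 0.19, Krt8 by 4.28 ± 0.16, Krt19 by 3.81 ± 0.14 and Krt7 by 3.16 ± 0.20.

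**Figure D5:**
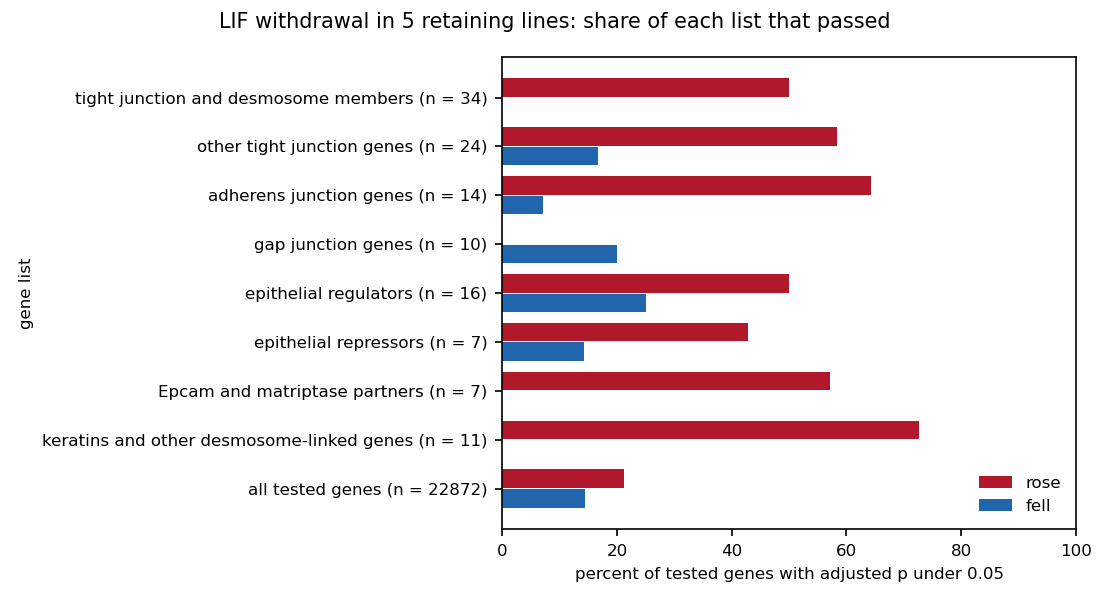
Percent of the tested genes of each list (y axis, n in brackets) that rose (red) or fell (blue) after LIF withdrawal in the 5 retaining lines, with all 22872 tested genes at the bottom. Keratins and other desmosome-linked genes have the highest share of rises (72.7%), where 21.3% of all tested genes rose. Gap junction genes have no rise, and their share of falls (20.0%) is near the 14.5% of all tested genes.

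In the lacking lines the same lists gave fewer calls than in the retaining lines. Over all tested genes 1.71% rose and 1.22% fell in the lacking lines, against 27.3% rises in the keratin list. Of the other tight junction genes 0 rose and 2 fell, Jam2 (-0.99 ± 0.19) and Crb3 (-0.76 ± 0.16), with 2 higher and 4 lower at an unadjusted p under 0.05 in limma. Of the adherens junction genes 1 rose, Cdh3 (0.64 ± 0.14), and of the keratin list 3 rose: Pof1b (1.09 ± 0.23), Krt8 (1.02 ± 0.21) and Krt19 (0.86 ± 0.18). In the direct test, 11 of 24 other tight junction genes, 5 of 14 adherens junction genes and 6 of 11 keratins and desmosome-linked genes had a smaller response in the lacking lines. Those with a larger one were 1, 1 and 0 genes (1 in the keratin list at an unadjusted p under 0.05 in limma). Over all tested genes 7.9% had a smaller response in the lacking lines and 4.17% a larger one. Cdh1 differed by -0.98 ± 0.12 and Cgn by -1.34 ± 0.14. With LIF, 9 of 24 other tight junction genes were higher and 2 lower in the lacking lines. Over all tested genes 10.6% were higher and 9.0% lower. Crb3 (1.49 ± 0.15), a polarity protein of the apical membrane, Bves (1.05 ± 0.11) and Marveld2 (0.96 ± 0.13) led the higher ones. Krt19 (1.50 ± 0.19), Krt18 (1.33 ± 0.30) and Cdh1 (0.53 ± 0.10) were also higher in the lacking lines with LIF.

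Epcam is cleaved by the protease matriptase (St14), which prostasin (Prss8) acts with and Spint1 inhibits. In the retaining lines 4 of 7 genes of that list rose, Prss8 by 2.44 ± 0.12, Cd44 by 1.95 ± 0.15, Spint1 by 1.24 ± 0.13 and St14 by 0.92 ± 0.15, and 0 fell (0 also at an unadjusted p under 0.05 in limma). In the lacking lines Prss8 alone rose (0.76 ± 0.15), where 1.71% of all tested genes rose. In the direct test 4 of the 7 had a smaller response in the lacking lines, where 7.9% of all tested genes did. For a larger response the count was 0 (0 also at an unadjusted p under 0.05 in limma), where 4.17% of all tested genes had one. Of 16 regulators of epithelial genes, 8 rose and 4 fell in the retaining lines, where 21.3% of all tested genes rose and 14.5% fell. Cdx2, a trophectoderm and gut factor, rose by 2.71 ± 0.21, Esrp2, a splicing factor of epithelia, by 1.46 ± 0.14 and Tfap2a by 1.41 ± 0.17, while Klf4 fell by 2.44 on the log2 scale. Grhl2, which activates Cldn3, Cldn4 and other junction genes in epithelia, rose in both classes, with no difference past the test. It rose by 1.10 ± 0.10 in the retaining lines and by 0.77 ± 0.13 in the lacking lines, and was higher in the lacking lines with LIF by 0.89 ± 0.12. The difference of its responses was -0.33 ± 0.16 (adjusted p = 0.219).

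Of 7 repressors of epithelial genes, 3 rose and 1 fell in the retaining lines, where 21.3% of all tested genes rose and 14.5% fell. The one that fell was Zeb1 (-2.44 ± 0.22); Twist1 rose by 0.59 ± 0.14, Snai1 by 0.57 ± 0.11 and Tcf3 by 0.31 ± 0.08. In the lacking lines none passed, with 1 higher and 0 lower at an unadjusted p under 0.05 in limma, and Zeb1 stood at -0.39 ± 0.28. With LIF Zeb1 was lower in the lacking lines (-1.65 ± 0.24), and the difference of its responses was 2.05 ± 0.35 (adjusted p = 0.00415).

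The E-box CACCTG that Zeb1 and Snai1 bind was found, on either strand, in 6640 of 32851 promoters of the table (20.2%). Counted by gene over all starts, 22.6% of 27025 genes held it, and 24.0% of the 3328 genes with a promoter that rose in the retaining lines. Of the 27 members with a promoter 11 held it (40.7%). Of the 17 members that rose in the retaining lines 12 have a promoter in this count, which leaves out Dsc2, Pkp2, Pkp3, Cldn9 and Cldn23. It was present in 8 of those 12 (66.7%), which were Cldn3, Cldn4, Cldn6, Cldn7, Dsp, Epcam, F11r and Ocln. Of the 17 tested members that did not pass 14 have a promoter, and 3 of these held it (21.4%): Cldn14, Pkp4 and Tjp3. The core AACCNGTT that grainyhead-like factors bind was in 2.09% of promoters and among the members in Cldn5 alone, which holds no E-box, so the motifs did not overlap. These counts describe letters in the promoter windows and say nothing of binding.

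The lists of cell type markers also held changes. Over all tested genes 21.3% rose and 14.5% fell in the retaining lines, and 1.71% rose and 1.22% fell in the lacking lines. Of 9 tested trophectoderm and trophoblast markers, 7 rose and 1 fell after LIF withdrawal in the retaining lines, and 1 rose in the lacking lines. The list's summed log2 signal lay between 10.71 and 10.87 in the lacking lines without LIF and between 10.58 and 12.00 in the retaining lines without LIF, against 10.27 to 10.62 and 10.06 to 10.51 in the same classes with LIF. The marker Tpbpa was below the filter, and the listed Gata3 and Prl3d1 were not measured. Cdx2, Tfap2c and Krt7 of this list also stand in the lists above. Of 6 fibroblast and feeder markers tested, 4 rose in the retaining lines, with summed signals of 9.10 to 9.69 without LIF, against 8.71 to 8.95 with LIF, and the fibroblast genes Lum and Postn were below the filter. Of 9 tested primitive and visceral endoderm markers, 3 rose and 2 fell in the retaining lines, with summed signals of 9.49 to 10.13 without LIF, against 9.17 to 9.40 with LIF. These did not overlap, while those of the lacking lines did, at 9.32 to 9.49 without LIF, against 9.19 to 9.42 with LIF. The genes of this list went both ways in the retaining lines, so its sum does not stand for each of them. Dab2 read 7.37 to 9.08 without LIF, against 5.14 to 6.00 with LIF. Gata4 read 6.83 to 7.30, against 7.17 to 7.81 with LIF, and Sox7 5.83 to 6.19, against 6.43 to 6.95 with LIF. Of 5 neural markers 1 rose and 3 fell in the retaining lines (9.46 to 10.13 without LIF, against 10.36 to 10.42 with LIF). Of 6 endothelium and blood markers 2 rose and 2 fell (9.34 to 10.26 without LIF, against 10.64 to 10.88 with LIF). The highest signal in that sum was that of Pecam1, 8.51 to 9.77 without LIF, against 10.29 to 10.44 with LIF. Kdr (5.13 to 6.95, against 4.42 to 4.97) and Cdh5 (4.74 to 5.32, against 4.48 to 4.71) went the other way. Of 4 intestine and liver markers 1 rose (7.61 to 7.85 without LIF, against 7.60 to 7.98 with LIF). Afp and Cubn of endoderm, Emcn and Ptprc of endothelium and blood, and Alb of liver were below the filter. Keratinocyte markers, with 2 of 6 rises, had summed signals of 8.77 to 9.08 without LIF, against 8.68 to 9.11 with LIF. Of 10 ESC markers, 7 fell and 1 rose in the retaining lines, and 1 fell in the lacking lines. Their summed signals lay between 14.39 and 14.85 in the retaining lines without LIF, against 14.94 to 15.16 with LIF. The part of these cell types in the changes of the junction genes was not tested.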

How the data were processed

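Total RNA of 16 samples was labelled for Affymetrix arrays. The authors deposited log2 signals, computed by RMA in affy per the submitters' processing notes. No version, probe set definition or genome build is given in the sources used here. Signal over background may limit the precision, and this was not measured here.

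Probe sets with a single symbol were kept (30439 of 65770; 2146 had several, 27 had no value), 22653 were matched by Entrez ID to RefSeq names (827 symbols updated), and the probe set with the highest mean stood for a gene. The 22872 genes that exceeded an array's 40th percentile on 3 or more arrays were tested with limma 3.58.1 in R 4.3.3 (lmFit, eBayes), with Benjamini-Hochberg adjustment over all of them. Fits of the response to LIF withdrawal, and of its difference between classes, held the line as a block, since both arrays of a line come from the same cell line; class differences within a condition used 4 groups and no block. The fits were also run on simulated data, and no result here rests on that. Noise was drawn separately for each array, so this cannot test class differences for correlation between the arrays of a line.

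The members, lists and tests were chosen with earlier results of these data known. Every member that passed with a log2 change of at least 1 is named with its values, as are the 5 members of highest mean and those not tested; per-line values are given for the 12 members of largest change and the highest of each family, and other lists give up to 4 genes per comparison, with Grhl2, Cdh1 and Zeb1 followed across comparisons after their values were seen. RefSeq promoters (GRCm38.p6) were searched for 2 motifs on both strands; other coordinates were not used, and proteins were not analysed here. Alternatives were 2 further scalings, 2 filters, probe set averaging, an intensity trend, array weights, the title run as a covariate and each run alone, the block, each condition alone, and leaving out each line.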

Additional observations from a re-analysis of the deposited data

Results flagged for a closer look

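Among 60 groups of 5 retaining lines tested for a line far from the rest, 8 had one. Chance gives about 1 in 20 groups where groups are independent. These are not, since all hold the same 5 lines and a response is the difference of 2 signals also tested. The count therefore cannot show an excess over chance. Cldn2, at low signal, accounts for 3: without LIF MBD3c read 4.55 and the other 4 lines 3.91 to 4.07, with LIF MBD3a read 4.19 and the others 3.96 to 4.01, and the response of MBD3c was 0.59 and that of the others -0.12 to -0.02. For Cldn22 without LIF, MBD3a read 6.14 and the others 5.86 to 5.92. The MBD-deleted line stood apart in the response of Cldn7, at 0.84 with the others at 1.77 to 2.12, and in Tjp1 with LIF, at 9.82 with the others at 10.29 to 10.40. EBRTcH3 stood apart in Dsc2 with LIF, at 5.62 with the others at 4.64 to 4.92, and in the response of Jup, at 0.36 with the others at 0.61 to 0.70.

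By the direct test in limma, 10 members had a smaller response in lacking than in retaining lines (lacking minus retaining): Dsc2 (-3.13), Dsp (-2.72), Cldn6 (-2.13), Ocln (-1.59), Cldn7 (-1.52), Cldn3 (-1.06), Cldn1 (-0.84), F11r (-0.70), Epcam (-0.65) and Pkp2 (-0.62).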

How the results depend on the processing

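The 56 calls of members over 6 comparisons were refitted under 1079 alternatives: 927 kept direction and threshold, 149 lost the threshold and 3 reversed. The reversals were the responses of Cldn4 (-0.30), Pkp3 (-0.24) and Cldn23 (-0.14) within the second run of titles, which holds 1 retaining line. Within that run 0 members passed for LIF withdrawal over 8 lines, in the retaining lines, in the lacking lines and for the response difference (12, 17, 1 and 10 over all lines; 4, 10, 7 and 8 in that run at an unadjusted p under 0.05 in limma), and 2 passed in each class difference (6 with LIF, 10 without). In each run 1 class is a single line, assumed to vary like the other class. Within the first run 0 passed in the lacking lines (7 unadjusted), 6 for the response difference and 2 with LIF. Array weights gave 4 in the lacking lines and 16 for the class difference without LIF, and the title run as a covariate gave 3 in the lacking lines. Leaving out 1 line at a time gave 7 to 13 over 8 lines (7 without EBRTcH3, MBD3a, MBD3b or MBD3c), 13 to 17 in the retaining lines, 0 to 1 in the lacking lines (0 without the empty vector, 4 unadjusted), 6 to 12 for the response difference (6 without the doubly deleted line), 5 to 9 with LIF (9 without MBD-deleted) and 8 to 14 without LIF. A fit with no replicate block called 15, 17, 1 and 10 members for the 4 LIF comparisons, and the line as a random block 6 and 10 for the class differences, so that the pairing moved no count by over 1.5 times. Over all genes, the second run gave 18 calls over 8 lines (5715 with all lines), 0 in the retaining lines (8181; 4284 at an unadjusted p under 0.05 in limma), 0 in the lacking lines (670; 2472 unadjusted) and 0 for the response difference (2759; 2730 unadjusted), with 1058 with LIF (4473) and 934 without (4328). The first run gave 84 in the lacking lines, 732 for the response difference, 1148 with LIF and 2412 without. Array weights gave 1612 in the lacking lines and 5414 for the response difference, and the run covariate 1145 in the lacking lines. Leaving out a line moved the count over 8 lines to 3761 (MBD3a) and 3645 (MBD3c), in the lacking lines to 114 (empty vector), 1039 (MBD-deleted), 266 (coiled-coil-deleted) and 280 (doubly deleted), and the response difference to 1353 (coiled-coil-deleted) and 1369 (doubly deleted). With LIF it moved to 2655 (coiled-coil-deleted) and 2712 (doubly deleted). Scaling moved the share of called genes that were higher: 60.4% over 8 lines became 49.7% (quantile) and 45.5% (centred), 59.5% in the retaining lines became 47.4% and 41.9%, 34.5% for the response difference became 46.1% and 47.9%, and 54.0% with LIF became 38.3% (centred). Centring moved the median of all genes in the retaining lines by 0.102 on the log2 scale, from 0.038 to -0.064, and the members rose or fell relative to that. The cause of these shifts was not tested.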
